A study of Homo sapiens with 6 samples.

Results

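Galectins are lectins that bind beta-galactose in the sugar chains of glycoproteins and glycolipids. The genes described are the galectins LGALS1, LGALS2, LGALS3, LGALS4, LGALS8 and LGALS9, together with LGALS3BP, which encodes a secreted glycoprotein that galectins bind and is not itself a galectin. These 7 genes were taken from the 17563 gene rows with values by matching their Entrez identifiers to symbols, and all 7 had values. The list was drawn up with the results of this comparison known, so the genes were chosen by the same contrast that is described. Their values are therefore given as a description, with no p-value, and nothing is supported by them.

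RNA was sequenced from Ls174t cells, a human colorectal adenocarcinoma line that makes mucin. A control line carrying the vector and a line stably overexpressing RNF186, an E3 ubiquitin ligase of the intestinal epithelium, were each split into 3 dishes of 6 cm. All 6 dishes were left untreated and were collected after 48 h in DMEM with 10% FBS and 1% penicillin-streptomycin. Each genotype is thus represented by dishes of 1 stable line, so that a difference between genotypes and a difference between these lines cannot be told apart, and p-values measure only the spread between dishes. The question addressed was which genes differ in RNA level between the vector and the RNF186 line.

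RNF186 was at 0.61 to 0.71 FPKM in the vector dishes and at 452 to 577 FPKM in the RNF186 dishes. FPKM divides the fragments of a gene by its length and by the mapped total, so levels can be set side by side between genes. The libraries summed to 398674 to 412391 FPKM in the vector and to 387478 to 396200 FPKM in the RNF186 group, without overlap. Read depth is unknown because the files give no counts. Of 12 markers of intestinal epithelium all were tested, with KRT8 the highest at a mean of 3651 FPKM in the vector and 2751 FPKM in the RNF186 dishes. The labels describe extraction from retinas, whereas the retinal markers summed to no more than 3.44 FPKM in any library. Summed markers reached at most 2.17 FPKM for fibroblasts, 1.21 FPKM for T and NK lymphocytes and 2.21 FPKM for endothelium. Macrophage and dendritic markers summed to 40.5 to 45.9 FPKM, mostly from CD68 and LYZ, which epithelial cells also express. CD14 averaged 1.99 FPKM in the vector and 1.31 FPKM in the RNF186 dishes, and CSF1R 0.11 and 0.36 FPKM. AIF1 was at 0 in all 6 libraries, and CD163 averaged 0.01 FPKM or less in each group. Library RNF186 2 stood apart from the other 5 on the second principal component, which held 10.1% of the variance.

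Galectins are made in the cytosol without a signal peptide and leave the cell by a route that bypasses the Golgi. Outside, they cross-link N-acetyllactosamine chains on receptors, integrins, mucins and laminins, and inside the cell some of them bind signalling proteins or the sugars exposed on broken endosomes and lysosomes. By architecture, galectin-1 and galectin-2 are prototype galectins with a lone carbohydrate-binding domain. Galectin-3 is the chimera type, with a long flexible tail before its domain, and galectin-4, galectin-8 and galectin-9 are tandem-repeat galectins with a pair of different domains on a linker. Galectin-4 is typical of the gut epithelium, and galectin-3 is abundant in many epithelia.

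Promoter sequence of 6 of the 7 genes was matched by symbol in the RefSeq table of build GRCh38.p14. Each window holds the 250 bases before the annotated start and the 30 bases from the start on, read 5′ to 3′ on the gene's strand, so that the start is position 251. Those of LGALS9 (chr17:27630938-27631217, plus strand), its copies LGALS9B (chr17:20467510-20467789, minus strand) and LGALS9C (chr17:18476539-18476818, plus strand), and LGALS3BP (chr17:78979894-78980173, minus strand) are shown because LGALS9 and LGALS3BP hold the core of the interferon-stimulated response element. LGALS4 (chr19:38812916-38813195, minus strand) and LGALS3 (chr14:55129002-55129281, plus strand) are shown as the genes with the highest RNA levels of the family. Capitals mark motif matches, and in LGALS9B and LGALS9C they mark the base that differs from LGALS9 inside its match.
LGALS9: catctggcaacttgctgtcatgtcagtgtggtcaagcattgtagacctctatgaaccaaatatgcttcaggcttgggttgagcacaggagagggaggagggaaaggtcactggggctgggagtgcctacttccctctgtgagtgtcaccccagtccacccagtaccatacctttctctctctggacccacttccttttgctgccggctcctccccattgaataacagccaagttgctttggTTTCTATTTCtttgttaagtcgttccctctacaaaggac
LGALS9B: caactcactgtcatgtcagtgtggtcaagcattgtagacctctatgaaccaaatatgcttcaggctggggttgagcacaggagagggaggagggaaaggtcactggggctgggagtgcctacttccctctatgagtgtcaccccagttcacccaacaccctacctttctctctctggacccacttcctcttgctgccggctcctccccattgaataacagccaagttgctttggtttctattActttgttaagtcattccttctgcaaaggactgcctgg
LGALS9C: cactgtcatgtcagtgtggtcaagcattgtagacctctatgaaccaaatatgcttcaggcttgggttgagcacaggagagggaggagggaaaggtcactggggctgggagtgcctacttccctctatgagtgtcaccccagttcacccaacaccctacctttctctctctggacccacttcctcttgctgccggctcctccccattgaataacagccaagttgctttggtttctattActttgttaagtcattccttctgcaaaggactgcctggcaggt
LGALS3BP: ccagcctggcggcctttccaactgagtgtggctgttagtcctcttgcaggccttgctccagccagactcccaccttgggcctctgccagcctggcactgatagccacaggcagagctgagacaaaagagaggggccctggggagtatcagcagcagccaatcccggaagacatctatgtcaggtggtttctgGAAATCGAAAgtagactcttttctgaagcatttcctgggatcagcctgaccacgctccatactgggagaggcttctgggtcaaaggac
LGALS4: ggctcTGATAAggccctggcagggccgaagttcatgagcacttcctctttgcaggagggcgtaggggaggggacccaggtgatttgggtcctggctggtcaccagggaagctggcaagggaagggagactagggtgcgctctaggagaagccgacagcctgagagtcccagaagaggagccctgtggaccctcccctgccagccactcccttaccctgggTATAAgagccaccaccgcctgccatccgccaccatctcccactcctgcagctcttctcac
LGALS3: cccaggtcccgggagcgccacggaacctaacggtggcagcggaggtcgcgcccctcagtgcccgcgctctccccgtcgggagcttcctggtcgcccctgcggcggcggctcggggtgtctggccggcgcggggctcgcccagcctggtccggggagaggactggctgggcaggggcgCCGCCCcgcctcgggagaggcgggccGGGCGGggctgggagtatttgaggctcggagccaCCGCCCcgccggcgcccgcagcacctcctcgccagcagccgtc

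The response element core was searched as GAAANNGAAA on both strands. It occurred in LGALS9 on the reverse strand, from 9 bases before the start to the start itself, and in LGALS3BP on the forward strand, from base -58 to base -49. Of 35116 RefSeq promoter windows of the same 280 bases, 3.39% held it. LGALS9B and LGALS9C each carry T250A, counted from the first base of the LGALS9 window, and neither holds the core. Over the aligned bases LGALS9B was identical to LGALS9 at 95.2% of 273 and LGALS9C at 95.5% of 268, and these copies were identical to each other at 99.6% of 275.

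The TATA box was searched as TATAA, and LGALS4 held it from base -30 to base -26. It was found in 19.9% of all windows. The motif of GATA factors was searched as TGATAA, which LGALS4 held near the far end of its window, as did 7.19% of all windows. Both were searched on both strands. The 2 matches in LGALS4 do not overlap. The GC box was searched as GGGCGG, also on both strands, and LGALS3 held it at 3 places, against 44.1% of all windows with at least 1 match. The 3 LGALS3 matches do not overlap one another. LGALS8 has 3 windows in the table, of which 1 held TATAA at 2 places and another held 1 GC box. The consensus of NF-kB was found in none of the windows of these 6 genes and in 5.60% of all windows. These are matches of letters and say nothing of factor binding in these cells.

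Among the prototype galectins, LGALS1 differed most. Galectin-1 is a secreted homodimer known for binding T cell and endothelial glycoproteins. LGALS1 stood at 22.9, 20.4 and 20.1 FPKM in vector dishes 1, 2 and 3 and at 2.32, 2.29 and 2.80 FPKM in RNF186 dishes 1, 2 and 3. All RNF186 dishes lay far below all vector dishes, and the spread within a group was small beside the gap. The mean went from 21.1 ± 1.53 FPKM to 2.47 ± 0.286 FPKM (SD, n = 3 each), 8.55-fold lower with RNF186. On the log2(FPKM + 1) scale the difference was -2.67, with a standard error of 0.08 and a 95% interval from -2.85 to -2.50 (limma fit of all genes). In size it was the 12th largest of the 11632 genes tested, and the 6th largest decrease. Its median rank by FPKM within a library moved from 3888 in the vector dishes to 10596 in the RNF186 dishes.

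LGALS2, whose product is a prototype galectin of the stomach and intestinal lining, was barely detected. LGALS2 was listed at 0.12, 0 and 0.12 FPKM in the vector dishes and at 0, 0 and 0.25 FPKM in the RNF186 dishes. It was under the minimum mean of 1 FPKM, was not tested, and gives no fold. The groups overlapped.

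LGALS3 encodes the chimera galectin, which acts in cell adhesion, in splicing and at damaged lysosomes. LGALS3 stood at 434, 431 and 415 FPKM in the vector dishes and at 364, 361 and 346 FPKM in the RNF186 dishes. The groups did not overlap, and the RNF186 dishes were 1.20-fold lower on average, at 357 ± 9.93 FPKM against 427 ± 10.6 FPKM (SD, n = 3 each). The log2 difference was -0.26, with a standard error of 0.04 and a 95% interval from -0.35 to -0.16. It stayed among the most abundant transcripts, at a median rank of 126 in the vector dishes and 139 in the RNF186 dishes.

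The tandem-repeat galectins went in different directions. LGALS4, whose product binds sulphated glycolipids and is known for apical protein delivery in enterocytes, stood at 653, 601 and 587 FPKM in the vector dishes and at 375, 415 and 381 FPKM in the RNF186 dishes. Every RNF186 dish was below every vector dish. The mean went from 613 ± 34.6 FPKM to 391 ± 21.3 FPKM (SD, n = 3 each), 1.57-fold lower with RNF186. On the log2 scale the difference was -0.65, with a standard error of 0.06 and a 95% interval from -0.78 to -0.52. Of 12 markers of intestinal epithelium, 6 were called lower and 3 higher, beside 18.9% lower and 19.9% higher among all tested genes. The summed level of the 12 markers was 6555 to 7150 FPKM in the vector and 5316 to 5815 FPKM in the RNF186 dishes. The lower sum came from the keratins KRT8, KRT18 and KRT19, at 5620 to 6230 FPKM and 4329 to 4890 FPKM. The other 9 markers summed to 911 to 936 FPKM and 925 to 987 FPKM, and the groups overlapped. Among these 9, VIL1, CDH17 and GUCY2C were called lower, at -0.51, -0.39 and -0.25 (limma adjusted p = 3.47e-05, 0.00012 and 0.0266). The 3 called higher were EPCAM, CDH1 and CDX2, each lost without vector dish 2 or RNF186 dish 1 (limma adjusted p = 0.0537 to 0.0746). EPCAM and CDH1 were also lost without RNF186 dish 3 (0.0631 and 0.0594), and CDX2 without vector dish 3 (0.0842). The calls of VIL1, CDH17 and GUCY2C were not followed when libraries were left out. The part of the markers in the difference of LGALS4 was not tested. In bulk RNA, fewer cells of a kind and less RNA per cell cannot be told apart.

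LGALS8 and LGALS9 were higher with RNF186. Galectin-8 is known as a sensor of broken endosomes that recruits autophagy receptors. LGALS8 stood at 11.5, 11.4 and 11.2 FPKM in the vector dishes and at 17.3, 15.9 and 17.2 FPKM in the RNF186 dishes. The groups did not overlap, and the RNF186 mean of 16.8 ± 0.797 FPKM was 1.48-fold the vector mean of 11.3 ± 0.186 FPKM (SD, n = 3 each). The log2 difference was 0.53, with a standard error of 0.06 and a 95% interval from 0.40 to 0.65.

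Galectin-9 is induced by interferon in many cells and is known as a ligand of the T cell receptor TIM-3. LGALS9 stood at 17.5, 17.0 and 17.5 FPKM in the vector dishes and at 23.1, 27.8 and 25.1 FPKM in the RNF186 dishes. All RNF186 dishes were higher, with dish 2 the highest, and their spread was wider than that of the vector dishes. The RNF186 mean of 25.3 ± 2.39 FPKM was 1.46-fold the vector mean of 17.4 ± 0.289 FPKM (SD, n = 3 each). The log2 difference was 0.52, with a standard error of 0.07 and a 95% interval from 0.37 to 0.67.

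LGALS3BP encodes a secreted partner of galectin-3 that is also known as an interferon-responsive gene. LGALS3BP stood at 174, 160 and 153 FPKM in the vector dishes and at 160, 187 and 157 FPKM in the RNF186 dishes. The groups overlapped, and RNF186 dish 2 was the highest of all 6. The means were 162 ± 10.3 FPKM and 168 ± 16.6 FPKM (SD, n = 3 each). The log2 difference of 0.05 had a standard error of 0.07 and a 95% interval from -0.11 to 0.21.

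**Figure D1:**
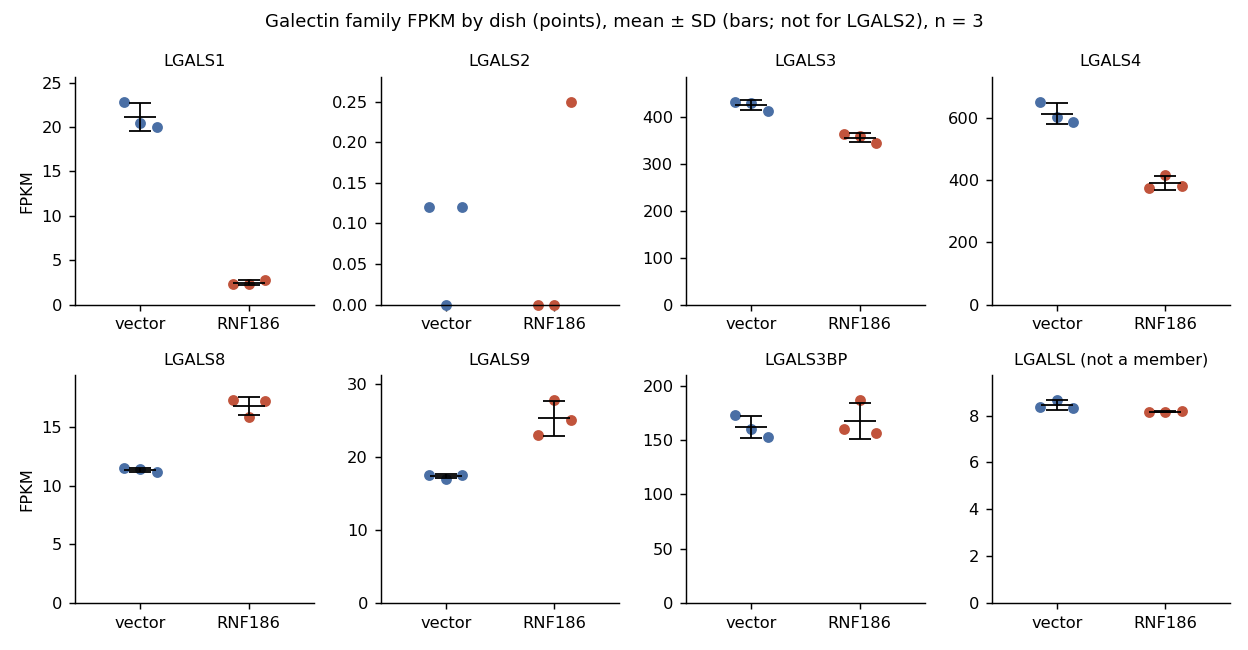
FPKM of the 7 genes and of the related gene LGALSL in each dish, with a linear axis from 0 for each gene. Points are dishes and bars are the mean ± SD of 3 dishes, drawn for all genes but LGALS2, which was listed at 0 in 3 of 6 libraries. The vector and RNF186 dishes do not overlap for LGALS1, LGALS3, LGALS4, LGALS8 and LGALS9, and they overlap for LGALS3BP. The groups of LGALSL do not overlap either, at 8.31 to 8.67 and 8.13 to 8.21 FPKM.

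Calls were made at a Benjamini-Hochberg adjusted p under 0.05 in the limma fit of the 11632 genes that averaged 1 FPKM or more. As a description, 5 of the 6 members that entered that fit were on the called side, 3 lower and 2 higher, where 38.8% of all tested genes were called in either direction, 18.9% lower and 19.9% higher. In 5 of the 6 the groups did not overlap, as in 49.5% of all tested genes. The median size of the log2 difference was 0.52 among the 6 and 0.14 over all tested genes. The signed median was -0.11 among the 6 and -0.00 over all. Since the members were listed with this contrast known, nothing is read from these counts. The list has no threshold, and LGALS3BP and LGALS3 hold its smallest differences.

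**Figure D2:**
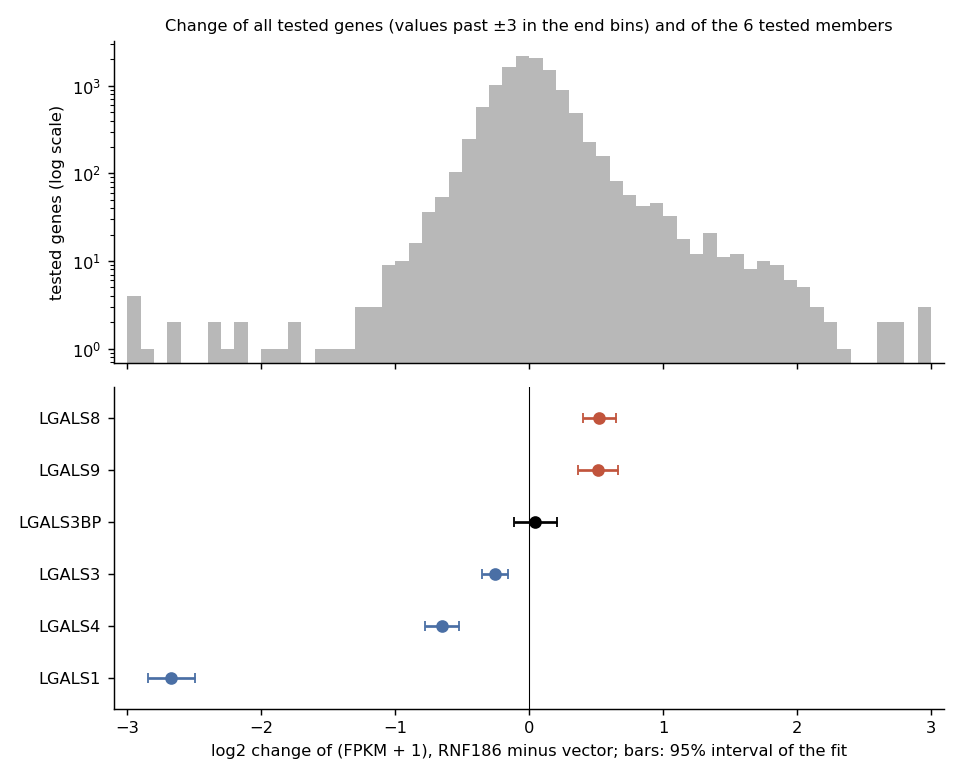
Difference on the log2(FPKM + 1) scale, RNF186 minus vector, for the 6 tested members (lower panel, bars are 95% intervals of the limma fit) above which the same difference is counted over all 11632 tested genes (upper panel, log scale). LGALS1 lies at -2.67 in the thin left tail, and LGALS3BP has an interval that covers 0.

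The galectins differed in level by orders of magnitude within a library. In the vector dishes the order by FPKM was LGALS4, LGALS3, LGALS3BP, LGALS1, LGALS9, LGALS8 and LGALS2. In the RNF186 dishes LGALS1 stood below LGALS9 and LGALS8, and the rest of the order was the same. No neighbours in either order overlapped across the dishes of a group. The closest pair at the top was LGALS4 and LGALS3 in the RNF186 dishes, where the lowest LGALS4 value was 375 FPKM and the highest LGALS3 value was 364 FPKM.

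Summed over the 6 galectins, the level was 1139, 1081 and 1050 FPKM in the vector dishes and 782, 822 and 772 FPKM in the RNF186 dishes. That sum was 0.263 to 0.276% of all FPKM in the vector libraries and 0.199 to 0.207% in the RNF186 libraries. LGALS4 and LGALS3 made up nearly all of it in every dish. The share of LGALS4 was 55.6 to 57.3% of the sum in the vector dishes and 48.0 to 50.5% in the RNF186 dishes, while that of LGALS3 was 38.1 to 39.9% and 43.9 to 46.5%. LGALS1 held 1.89 to 2.01% in the vector and 0.279 to 0.363% in the RNF186 dishes.

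Ratios within a library do not depend on how libraries were scaled to one another. The ratio of LGALS4 to LGALS3 was 1.39 to 1.50 in the vector dishes and 1.03 to 1.15 in the RNF186 dishes. That of LGALS9 to LGALS1 was 0.766 to 0.874 and then 8.96 to 12.2, so the order of the 2 genes was opposite in the groups. The ratio of LGALS9 to LGALS8 was 1.50 to 1.57 in the vector dishes and 1.33 to 1.75 in the RNF186 dishes, and here the groups overlapped.

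**Figure D3:**
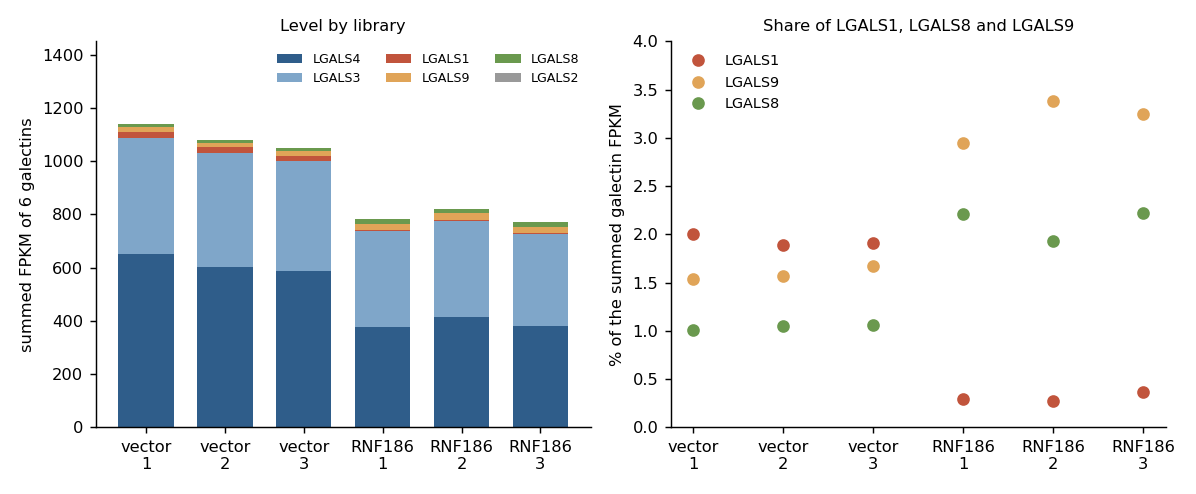
Summed FPKM of the 6 galectins per library, stacked by gene (left), and the share of LGALS1, LGALS8 and LGALS9 in that sum in percent (right). The sum lies at 1050 to 1139 FPKM in the vector and at 772 to 822 FPKM in the RNF186 libraries, and LGALS1 is the highest of the 3 minor genes in every vector library and the lowest in every RNF186 library.

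Of the 17 galectin-family genes with a row in the table, 11 are not among the members, and 5 of these had no values: LGALS7, LGALS13, LGALS16, CLC and GRIFIN. LGALSL, a galectin-related gene whose product lacks sugar binding, was at 8.37, 8.67 and 8.31 FPKM in the vector dishes and at 8.17, 8.13 and 8.21 FPKM in the RNF186 dishes. The groups did not overlap, but it was not called (log2 difference -0.04, limma adjusted p = 0.573). LGALS7B, LGALS9B, LGALS9C, LGALS12 and LGALS14 were under the minimum, and the highest value among them was 0.31 FPKM, for LGALS9C.

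Sequence shared with other transcripts bears on how far single values can be trusted. In GENCODE release 29, no run of 50 bases from the protein-coding transcripts of LGALS1, LGALS2, LGALS4 or LGALS3BP occurred in another gene's transcripts. For LGALS9, 20.1% of such runs recurred on the same strand elsewhere, 9.30% in LGALS9C, 7.43% in AC015688.4, 6.56% in LGALS9DP and 4.71% in LGALS9B, so that reads could be split among the copies. For LGALS3 the share was 1.34%, spread over many genes. For LGALS8, 33.0% of runs lay opposite to another gene, 25.4% opposite HEATR1 and 7.64% opposite LGALS8-AS1. Strand-specific counting is not mentioned in the labels, so LGALS8 and the overlapping genes cannot be told apart over those runs. HEATR1 was lower with RNF186, with a log2 difference of -0.18 (limma adjusted p = 0.0167, but 0.0679 without vector dish 3, 0.0537 without RNF186 dish 3 and 0.0847 after rescaling to TPM).

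The tested genes next to each member on the chromosome were chosen for description after values were seen. Among all 11632 tested genes 38.8% were called, and nothing is read from calls beside a member. Around LGALS1, SH3BP1, PDXP and TRIOBP were not called, with log2 differences from -0.07 to -0.04, and NOL12 was lower at -0.25 (limma adjusted p = 0.0122, and 0.0526 without RNF186 dish 1). Around LGALS2, CDC42EP1 was lower at -0.46 (limma adjusted p = 0.00494), and CARD10, GGA1 and SH3BP1 were not called. Without RNF186 dish 2, CARD10 and GGA1 were called lower (0.0168 and 0.00116). GGA1 was also called lower after median scaling (0.0356) and quantile normalization (0.0447). Around LGALS8, GPR137B and ERO1B were higher, by 0.76 and 0.67 (limma adjusted p = 8.46e-06 and 0.000197), and MTR was not called. ECH1, the gene after LGALS4, was lower at -0.50 (limma adjusted p = 0.000423), while CAPN12, ACTN4 and HNRNPL were not called. The last 2 of these were called lower without RNF186 dish 2 (limma adjusted p = 0.0416 and 0.0217). Around LGALS3, DLGAP5 and FBXO34 were lower at -0.46 and -0.31 (limma adjusted p = 0.000681 and 0.00137), and SOCS4 and MAPK1IP1L were not called. Of the genes around LGALS3BP, which itself did not separate, TIMP2 was higher by 0.92, C1QTNF1 was higher by 0.61 and USP36 was lower at -0.27 (limma adjusted p = 8.45e-06, 0.000720 and 0.0118). CANT1 was not called there, at -0.11, but was called lower without RNF186 dish 2 (limma adjusted p = 0.00821). Around LGALS9, WSB1, KSR1 and LYRM9 were not called, and NLK was higher by 0.23 (limma adjusted p = 0.0245, but 0.0535 to 0.105 without vector dish 1, 2 or 3 or RNF186 dish 3).

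The genes with the most similar profile over the 6 libraries were taken as those at the smallest Euclidean distance between mean-centred log2(FPKM + 1) values. For LGALS1 these were CA9, a carbonic anhydrase of the cell surface, at a distance of 0.328, the metallothionein MT2A at 0.342, and LCN15 at 0.552. CA9 went from 30.6 ± 1.88 FPKM to 4.17 ± 0.372 FPKM and MT2A from 756 ± 95.6 FPKM to 100.3 ± 4.74 FPKM (SD, n = 3 each). Profiles were not scaled, so a gene with a large difference has few near genes by construction. No tested gene lay within 0.25 of LGALS1 and 2350 did for LGALS3, and nothing beyond the size of their differences is read from these counts. For LGALS4 the nearest were NSDHL, HSPA1B and TRIM29, and for LGALS3 they were RNF26, CCT5 and GLOD4. LGALS8 was nearest to HSDL1, P4HA1 and ATP1B1, and LGALS9 to ARHGEF2, CCBE1 and MGAT1. LGALS3BP was nearest to ARPC1A, HLA-B and GNA12, each at its highest in RNF186 dish 2.

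Other genes of galectin biology are given with their limma tests. They form 7 lists drawn up by function, also with earlier results of these data known. The lists cover genes that build or trim the sugars, proteins that carry them, partners inside the cell, other lectins and interferon response genes. With LGALSL they made 115 distinct tested genes, of which 42 rose and 15 fell, or 49.6% called. Among all tested genes 38.8% were called, 19.9% higher and 18.9% lower. The median log2 difference of the 115 genes was 0.07. The number of the 115 that fell was 23 without RNF186 dish 2.

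Enzymes that branch N-glycans set how many galectin-binding antennae a glycoprotein bears. Of 11 tested, 4 rose, none fell and 7 were not called, with a median of 0.12. That is 36.4% called, beside 38.8% of all tested genes. MAN1A1, a Golgi mannosidase that trims N-glycans, rose from 31.8 ± 2.05 to 59.9 ± 3.96 FPKM (SD, n = 3 each; log2 difference 0.89, limma adjusted p = 4.81e-06). MGAT5, which adds the branch that galectin-3 favours, rose from 43.1 ± 1.24 to 63.1 ± 1.76 FPKM (0.54, limma adjusted p = 1.56e-05). MGAT1, the enzyme that opens complex branching, and the mannosidase MAN2A1 rose by 0.47 and 0.41 (limma adjusted p = 0.000347 and 0.00103). MGAT4B and MGAT2 were not called, at -0.12 and -0.10. Without RNF186 dish 2 both were called lower (limma adjusted p = 0.00653 and 0.0290), and 3 genes of the list then fell. Over all tested genes 2945 were then called lower, against 2195 with all 6 libraries.

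Enzymes of N-acetyllactosamine synthesis build the galactose-bearing unit itself. The 18 genes tested also include the sugar transporters SLC35A2 and SLC35A3 and the chaperone C1GALT1C1. Of the 18, 5 rose, 3 fell and 10 were not called, with a median of 0.04. SLC35A3 was among those that fell (-0.16, limma adjusted p = 0.0401), a call not followed when libraries were left out. That is 44.4% called, beside 38.8% of all tested genes. The galactosyltransferases B4GALT5 and B4GALT1 rose by 0.51 and 0.31 (limma adjusted p = 2.95e-05 and 0.000884). GCNT1, which starts core 2 O-glycan branches, rose by 0.61 (limma adjusted p = 0.000292) from 1.20 to 2.35 FPKM. GCNT3, the mucin-type branching enzyme of the gut, fell from 92.6 ± 2.96 to 70.1 ± 1.46 FPKM (SD, n = 3 each; -0.40, limma adjusted p = 0.000107). B3GNT3 and SLC35A2 were not called, both at -0.05.

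Sialic acid and fucose cap the chains and alter what galectins can bind. The 12 genes tested include the sialidases NEU1 and NEU3, which remove sialic acid. Of the 12, 2 rose, 3 fell, NEU1 among them, and 7 were not called, with a median of 0.02. That is 41.7% called, beside 38.8% of all tested genes. ST6GAL1, whose alpha-2,6 sialic acid blocks binding by galectin-1, stood at 3.31, 2.76 and 3.13 FPKM in the vector dishes and at 7.76, 7.19 and 7.72 FPKM in the RNF186 dishes. It rose by 1.08 on the log2 scale, with a standard error of 0.07 (limma adjusted p = 3.65e-06). The fucosyltransferase FUT4 fell by 0.63 and the sialidase NEU1 by 0.20 (limma adjusted p = 4.05e-05 and 0.0115). ST3GAL1 rose by 0.16 (limma adjusted p = 0.0374), a call that was lost without any library but RNF186 2, at adjusted p from 0.0600 to 0.116, and after median scaling (0.0529). FUT3 and FUT2 were not called, at 0.01 and 0.04.

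Of 24 tested glycoproteins known to be bound by galectins, 11 rose, 2 fell and 11 were not called, where 19.9% of all tested genes were called higher and 18.9% lower. The median log2 difference was 0.08. The number that rose was 7 without vector dish 2, when 1720 of all tested genes were called higher, against 2314 with all libraries. The number that fell was 1 without vector dish 2, RNF186 dish 1 or RNF186 dish 3, and 5 without RNF186 dish 2. Lower calls over all tested genes numbered 1474, 1500, 1435 and 2945 in these runs, in that order, against 2195 with all libraries. CEACAM5, the carcinoembryonic antigen, stood at 51.7, 50.6 and 50.6 FPKM in the vector dishes and at 125, 131 and 128 FPKM in the RNF186 dishes (log2 difference 1.31, limma adjusted p = 1.50e-08). Its relative CEACAM6 rose by 0.96 (limma adjusted p = 1.44e-06), and reads shared between the 2 CEACAM genes may have been split. The semaphorin and VEGF co-receptor NRP1, a partner of galectin-1, rose from 15.4 ± 0.335 to 34.1 ± 1.15 FPKM (SD, n = 3 each; 1.10, limma adjusted p = 1.81e-07). The adhesion molecule ICAM1 rose by 0.63 (limma adjusted p = 0.000135). TFRC and BSG were not called, at 0.06 and -0.11, and BSG was called lower without RNF186 dish 2 (-0.22, limma adjusted p = 0.00604). TFRC was called higher after quantile normalization (0.15, limma adjusted p = 0.0331). The integrin genes ITGB4 and ITGA3 fell by 0.55 and 0.27 (limma adjusted p = 0.00156 and 0.0137). The call of ITGA3 was lost without vector dish 2, RNF186 dish 1 or RNF186 dish 3 (0.0615, 0.0526 and 0.0559).

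Partners inside the cell include beta-catenin, which galectin-3 binds, and the proteins that act with galectins at damaged lysosomes. Of 22 tested, 8 rose, 4 fell and 10 were not called, with a median of 0.05. That is 54.5% called, beside 38.8% of all tested genes. CTNNB1, encoding beta-catenin, rose from 226 ± 2.63 to 376 ± 2.86 FPKM (SD, n = 3 each; 0.73, limma adjusted p = 6.34e-07). AXIN2, a negative regulator and target of the same pathway, rose by 0.77 (limma adjusted p = 4.55e-07). The autophagy receptors OPTN and SQSTM1 rose by 0.72 and 0.45 (limma adjusted p = 1.35e-05 and 0.000249). Of other receptors in the list, CALCOCO2 was not called, at -0.0016 (limma adjusted p = 0.984). TAX1BP1 rose by 0.19 (limma adjusted p = 0.0459) with overlapping groups, and its call was not followed when libraries were left out. TRIM16, which acts with galectin-3 at damaged endosomes and lysosomes, and the autophagy gene ATG16L1 fell by 0.26 and 0.31 (limma adjusted p = 0.00226 and 0.00165). VPS4A and RRAGA were not called, at -0.08 and -0.04.

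Among 9 tested lectins outside the family, 44.4% were called, beside 38.8% of all tested genes. In this list 3 rose, 1 fell and 5 were not called, with a median of 0.14. Those that rose act in the endoplasmic reticulum and early secretory path, not at the cell surface: CALR by 0.52, LMAN1 by 0.51 and CANX by 0.29 (limma adjusted p = 1.51e-05, 6.53e-05 and 0.00177). REG4, a secreted lectin of the gut, fell by 0.30 (limma adjusted p = 0.0250), and this call was lost without vector dish 1, vector dish 3 or RNF186 dish 3, at adjusted p of 0.0958, 0.0735 and 0.0948. It was also lost with no filter on low values (0.0649). LMAN2 and ZG16B were not called, at 0.20 and 0.14. LMAN2 was called higher without vector dish 1 (limma adjusted p = 0.0123) and with array weights (0.00804). It was also called higher after rescaling to TPM (0.0119) and after quantile normalization (0.0281). ZG16B was called higher without RNF186 dish 1 (0.0213).

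The interferon list was included because LGALS9 and LGALS3BP are known interferon responders. Of 18 tested, 9 rose, 2 fell and 7 were not called, with a median of 0.21. That is 61.1% called, beside 38.8% of all tested genes. The number of the list that rose was 7 to 8 when each library was left out in turn, and 6 at an adjusted p under 0.01. The number that fell was 1 without vector dish 1 or RNF186 dish 1, and 4 without RNF186 dish 2. Lower calls over all tested genes numbered 1548, 1500 and 2945 in these runs, in that order, against 2195 with all libraries. IFI6, an interferon-induced mitochondrial protein, stood at 5.69, 4.45 and 4.88 FPKM in the vector dishes and at 14.6, 13.7 and 14.9 FPKM in the RNF186 dishes (log2 difference 1.36, limma adjusted p = 1.34e-06). IFI27 rose from 73.9 ± 3.18 to 142 ± 10.8 FPKM (SD, n = 3 each; 0.93, limma adjusted p = 2.32e-06). The guanylate-binding protein GBP2 rose by 0.87 and IFIT3 by 0.61 (limma adjusted p = 3.69e-05 and 0.00195). The 2 that fell were MX1, an antiviral GTPase, by 0.33 (limma adjusted p = 0.00668) and IFITM1 by 0.24 (0.0155, but 0.0618 without vector dish 1 and 0.0616 without RNF186 dish 1). TAP1 and OAS1 were not called, at 0.12 and -0.06, and TAP1 was called higher after rescaling to TPM (0.17, limma adjusted p = 0.0332).

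**Figure D4:**
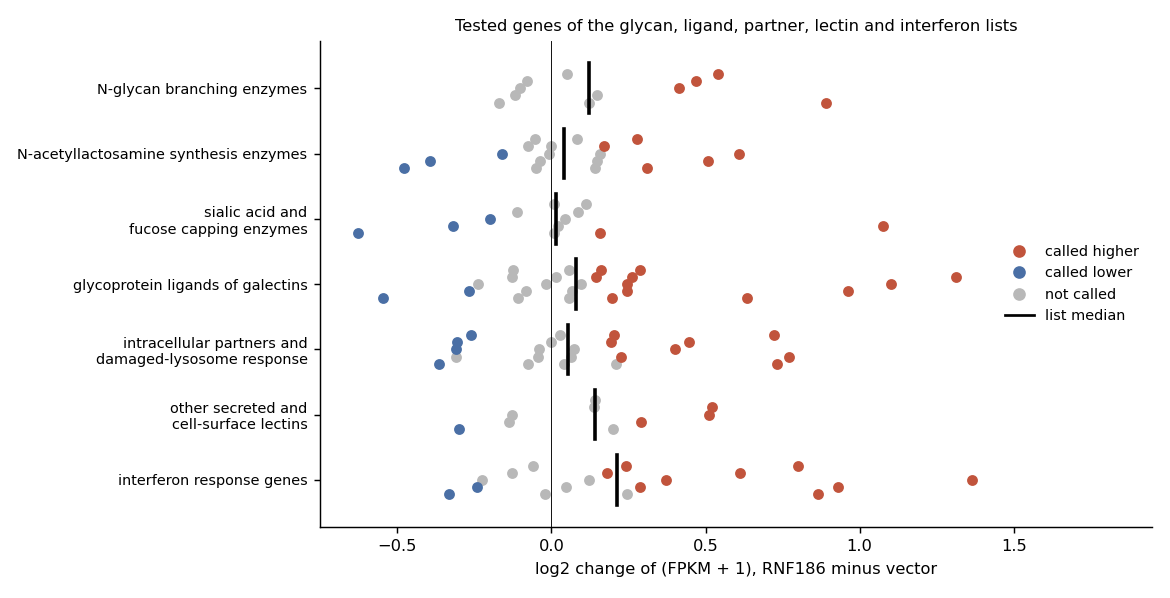
Difference on the log2(FPKM + 1) scale, RNF186 minus vector, of each tested gene of the 7 lists around galectin biology. Points are genes, coloured by their call at a limma adjusted p under 0.05, and black ticks are list medians. These lie between 0.02 for the list of capping enzymes and sialidases and 0.21 for the interferon list.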

How the data were processed

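RNA-seq of 3 vector and 3 RNF186 dishes of Ls174t was used as FPKM values deposited by the authors, to 2 decimals. Libraries came from 1 ug of total RNA with a TruSeq kit, per the labels' protocols. Bowtie 0.12.2 and the mouse builds mm8 and mm9 are named per the submitters' processing notes, which contradicts the human identifiers, so no coordinates of the deposited rows are given. Promoter windows carry the GRCh38.p14 coordinates of RefSeq and do not bear on how the FPKM were made. The counter, annotation and depth are not given in the sources used here. Of 19485 rows, 1 named no gene and 1921 had no values. Symbols came by Entrez identifier from RefSeq (GRCh38.p14), matching 17524 of 17563 rows, and 39 did not match.

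Values were analysed as log2(FPKM + 1) for 11632 genes averaging 1 FPKM or more, with limma 3.58.1 in R 4.3.3 (two-sided, mean-variance trend, without covariates) and Benjamini-Hochberg adjustment over all of them. The procedure was run on simulated independent normal values with far fewer changed genes than were called here. That run does not show its error rate on these data. A fold change on this scale understates the change of low genes. An exact permutation test of 3 against 3 cannot give a two-sided p under 0.1.

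The members and gene lists were chosen with earlier results of these data known. Named genes are the members, other galectins, RNF186, up to 4 called genes of each list with the smallest p and the 2 most abundant not called, the highest marker of each cell type, and the 3 most alike genes of each member. Chromosomal neighbours, TRIM16, ATG16L1, CALCOCO2, TAX1BP1, SLC35A3, C1GALT1C1, NEU3, ITGB4, ITGA3, MX1, IFITM1 and all markers beyond the highest were added after values were seen. Alternatives were other pseudocounts, filters, scalings and variance models, weights per array, the replicate number as a block, each library left out in turn and an adjusted p under 0.01.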

Additional observations from a re-analysis of the deposited data

How the results depend on the processing

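As a description of members chosen with this contrast known, 3 were called lower and 2 higher under every alternative run. The log2 difference ranged from -3.05 to -2.58 for LGALS1, from -0.28 to -0.15 for LGALS3, from -0.69 to -0.57 for LGALS4, from 0.50 to 0.60 for LGALS8 and from 0.45 to 0.58 for LGALS9. LGALS3BP ranged from -0.03 to 0.10.

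Over all genes 2314 were called higher and 2195 lower, so 51.3% of calls were higher, 63.1% after rescaling to TPM, 46.9% after median scaling and 48.5% after quantile normalization. At an adjusted p under 0.01 there were 1465 higher and 1121 lower. Leaving out each library gave 1720 to 2724 higher and 1435 to 2945 lower, with the most calls without RNF186 replicate 2 and the fewest lower calls without RNF186 replicate 3. Of the genes in the galectin-related lists, 42 were called higher and 15 lower. The lower count was 24 with array weights, 9 at an adjusted p under 0.01, and 11 to 23 when each library was left out, and the higher count was then 33 to 43. The cause of these shifts was not tested. KRT8 was not called after quantile normalization (-0.12, limma adjusted p = 0.0669).

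The replicate numbers are not said to pair the dishes, and they were not taken as pairs. Deviations of same-numbered dishes correlated at r = -0.27, -0.07 and 0.26. Those of vector 1 and RNF186 2 correlated at 0.39, and those of vector 3 and RNF186 2 at -0.37. With a replicate block 2050 genes were called higher and 1987 lower, and ST3GAL1 and CDH1 were not called (limma adjusted p = 0.0772 and 0.0502). Without vector replicate 1 and RNF186 replicate 2, an alternative chosen after seeing the data, 2597 genes were called higher and 2928 lower. Depth is unknown, so counting error could not be separated from the spread between dishes.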
